A study of Mus musculus with 4 samples.

Results

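Riok3, Msi2, Zfp945, Cd99l2, Gsn and Ngdn were each measured in the newborn mouse lens by several probe sets, which gave different answers to the same comparison. They are 6 of the 18193 genes that the platform annotation names for at least 1 probe set on its own. All 27 probe sets whose annotation names exactly 1 of these genes were taken, of 45101 on the array. The genes were chosen by the difference between Hsf4 knockout (KO) and wild-type (WT) lenses, which disagreed between their probe sets. That difference is therefore described below without a test.

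The study measured RNA of whole lenses on Affymetrix mouse expression arrays. The 2 arrays labelled HSF4 knockout and the 2 arrays labelled wild type each held 1 sample, and both groups are labelled as males of the 129S3 strain at postnatal day 0.5. Heat shock transcription factor 4, the target of the knockout, controls the transcription of lens genes during fibre cell maturation. The numbers 1 and 2 of the arrays come from the labels, which do not say whether the samples were separate animals or pools, or which part of Hsf4 was deleted, so the spread between arrays may be technical.

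On such an array a probe set is a group of short probes against one stretch of a transcript, usually near its 3′ end, and a gene can have several. The suffix of its name gives what the probes were designed to match. The suffix _at marks probes unique to one transcript, _a_at probes shared by alternative transcripts of one gene, _s_at probes shared by transcripts of different genes, and _x_at a set in which some probes also match unrelated sequences. Probe sets of one gene can therefore read different transcripts, or transcripts of another gene. Brightness also depends on the probes, so the levels of different probe sets are not amounts of RNA that can be set against each other.

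Levels are normalized intensities, and a change is KO minus WT on the log2(intensity + 16) scale, which understates the change of dim probe sets. A probe set passed the filter on low values where its mean log2 value reached the median over all non-control probe sets, an intensity of about 13.0. Of the 27 probe sets, 24 passed, and the other 3 were 1443008_at of Msi2, 1441792_at of Zfp945 and 1456568_at of Gsn. For 3 of the 24, 1437128_a_at of Zfp945, 1456747_x_at of Cd99l2 and 1456569_x_at of Gsn, the WT mean alone lay below the filter. They passed only through the KO arrays and had to differ.

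Before normalization the median intensity was 18.5 and 6.58 on KO arrays 1 and 2, against 21.4 and 10.5 on WT arrays 1 and 2, so arrays 2 were dimmer. The 3′ to 5′ ratio of the actin controls was 1.89 on KO array 2 and between 1.51 and 1.67 on the others. The only probe set named for Hsf4 measured 1212 and 413 on KO arrays and 505 and 138 on WT arrays, higher on the arrays labelled knockout. The sources used here do not say where it lies relative to the deleted part, so all directions below refer to the arrays as labelled. Of 7 lens markers, the crystallins Cryaa, Cryab and Crygs and the membrane proteins Mip and Lim2 measured at least 3670 on all 4 arrays. Of the filament proteins, Bfsp1 measured 2186 and 2060 on KO arrays, against 5220 and 3785 on WT arrays, and Bfsp2 measured 60.1 and 2907 on KO arrays, against 180 and 268 on WT arrays. The X-inactivation RNA Xist, made in female cells, measured 260 and 9.01 by its brightest probe set on KO arrays 1 and 2, against 605 and 58.0 on WT arrays 1 and 2, so its level on both arrays 1 goes against the label of male. The Y-linked gene Eif2s3y measured 101 and 161 on KO arrays, against 60.4 and 208 on WT arrays, by its brightest probe set. The changes within number 2, given below, leave out both arrays 1, but Xist was also lower on KO array 2 than on WT array 2. The part of sex in the changes below was not tested. Markers of striated muscle summed to 116 and 118 on KO arrays, against 2546 and 1274 on WT arrays (8 of 8 lower in KO within both numbers), and fibroblast markers to 330 and 613 on KO arrays, against 1065 and 1596 on WT arrays (6 of 6 lower). Retinal markers summed to 1349 and 855 on KO arrays, against 1409 and 1876 on WT arrays (3 of 6 lower and 0 higher). They were lowest on KO array 2.

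Each gene had at least 1 probe set that was at least 1 log2 unit higher on KO arrays and others that were near no change. There were 7 such probe sets, 2 of Cd99l2 and 1 of each other gene, and in all 7 both KO arrays lay above both WT arrays. No probe set of the 6 genes was 1 log2 unit lower. On the whole array, 0.333% of the probe sets above the filter were at least 1 log2 unit higher without overlap and 0.555% at least 1 log2 unit lower. Since the genes were picked for this difference, their count shows nothing beyond the choice. Of the 24 probe sets above the filter, 16 were within 0.5 log2 units of no change.

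**Figure D1:**
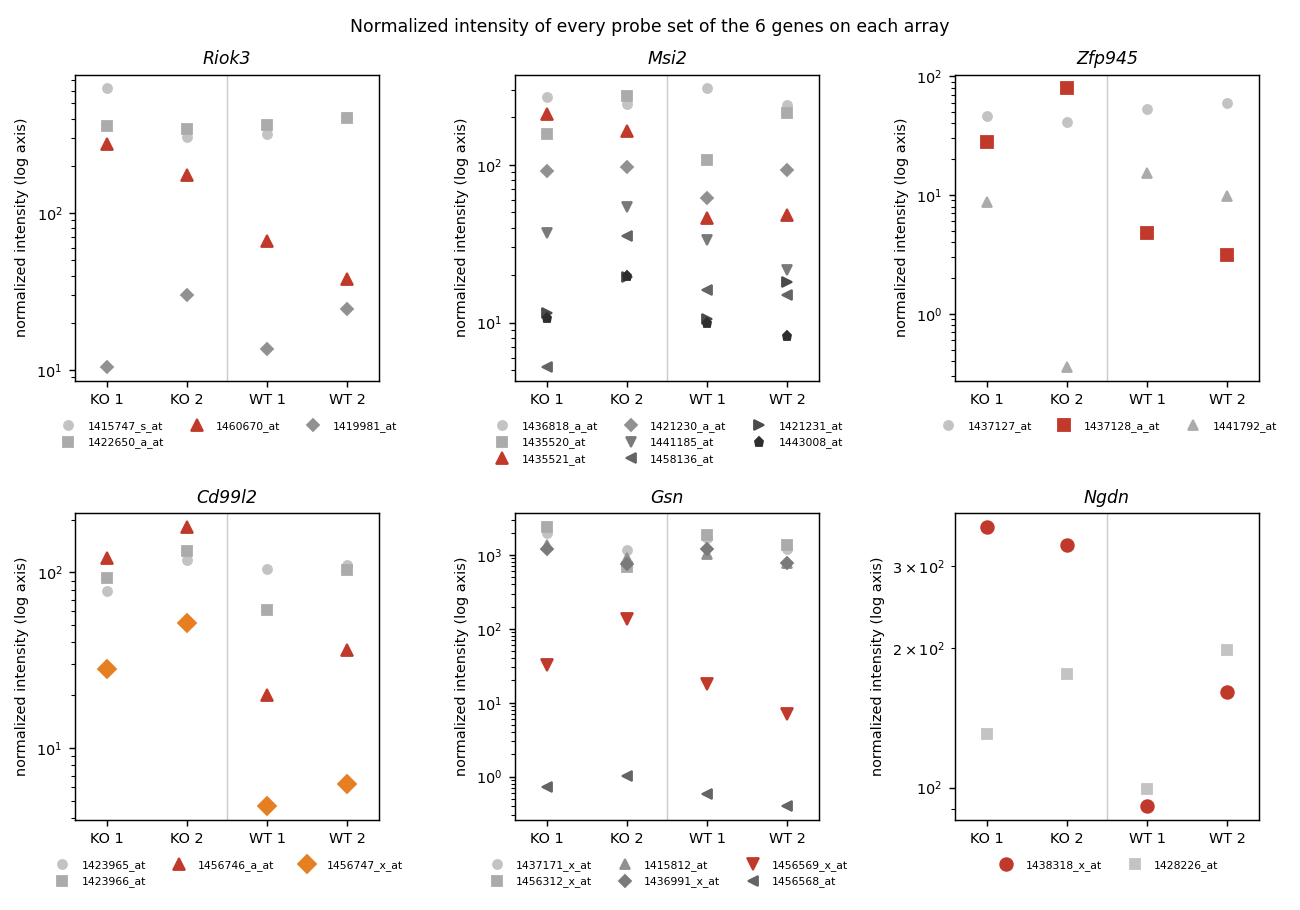
Normalized intensity (log axis) of all 27 probe sets on the 2 KO arrays and the 2 WT arrays, 1 panel per gene and 1 symbol per probe set. Coloured symbols are the 7 probe sets at least 1 log2 unit higher on KO arrays, and grey symbols are the other 20. Coloured symbols lie higher on both KO arrays than on both WT arrays in each panel, for Ngdn at 364 and 334 against 91.4 and 161.

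Riok3 encodes an atypical protein kinase of the RIO family, whose yeast members act in ribosome maturation. Its probe set 1460670_at measured 276 and 175 on KO arrays, against 66.3 and 37.9 on WT arrays. Both KO arrays were high and the groups did not overlap. The change was 1.82 (SE 0.36), nearly equal in number 1 (1.83) and number 2 (1.82). Probe set 1422650_a_at, drawn from the same source sequence, measured 361 and 342 on KO arrays, against 366 and 403 on WT arrays, a change of -0.12. The KO arrays were slightly below the WT arrays, without overlap.

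The brightest Riok3 probe set, 1415747_s_at, measured 621 and 307 on KO arrays, against 319 and 409 on WT arrays. Here KO array 1 was the highest and KO array 2 the lowest of the 4, so the groups overlapped, and the change was 0.93 within number 1 and -0.40 within number 2. The dimmest, 1419981_at, measured 10.5 and 29.9 on KO arrays, against 13.7 and 24.4 on WT arrays, with no consistent direction. Riok3 RNA is known to be abundant in maturing red blood cells. Erythroid markers summed to 135 and 514 on KO arrays, against 91.7 and 158 on WT arrays, with 4 of the 5 measured higher in KO within both numbers. Their part in the Riok3 values was not tested.

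Msi2 encodes Musashi 2, an RNA-binding protein known for controlling translation in stem and progenitor cells. It had 8 probe sets, the most of the 6 genes, and 7 passed the filter. One of them, 1435521_at, measured 211 and 164 on KO arrays, against 46.4 and 48.5 on WT arrays. The pair of WT arrays was tight and lay well below both KO arrays, and the change was 1.67 (SE 0.31), with 1.86 within number 1 and 1.48 within number 2.

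A neighbour from the same source sequence, 1435520_at, measured 156 and 274 on KO arrays, against 108 and 214 on WT arrays. This probe set followed the array number more than the group, with arrays 2 the brighter in each, and its change was 0.40. The brightest, 1436818_a_at, measured 271 and 245 on KO arrays, against 305 and 239 on WT arrays, with overlapping groups and a change of -0.06. The other 4 that passed had changes from 0.06 to 0.51. Thus 1 of 7 Msi2 probe sets stood at least 1 log2 unit from no change, and the median of the 7 was 0.27.

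Ngdn encodes neuroguidin, which binds the cap-binding translation factor eIF4E in neurons and belongs, in human cells, to the complex that assembles the small ribosomal subunit. Of its 2 probe sets, 1438318_x_at measured 364 and 334 on KO arrays, against 91.4 and 161 on WT arrays. Both KO arrays were high, and the change was 1.40 (SE 0.33), with 1.83 within number 1 and 0.98 within number 2. The other, 1428226_at, measured 130 and 176 on KO arrays, against 99.3 and 198 on WT arrays, with overlapping groups and a change of 0.09. Ngdn is the one gene of the 6 in which the higher probe set was also the brightest. It is of the _x_at type.

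Zfp945 encodes a zinc finger protein. Its probe set 1437128_a_at measured 28.0 and 78.9 on KO arrays, against 4.76 and 3.13 on WT arrays. The WT values were below the filter and the KO values above it, and the change was 1.70 (SE 0.41), with 1.08 within number 1 and 2.31 within number 2. Probe set 1437127_at comes from the same source sequence and measured 46.6 and 41.3 on KO arrays, against 52.9 and 59.9 on WT arrays. It ran the other way without overlap, with a change of -0.27. The third, 1441792_at, below the filter, measured 8.80 and 0.36 on KO arrays, against 15.4 and 9.88 on WT arrays (change -0.50).

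Cd99l2 encodes a membrane glycoprotein related to CD99, which in mice takes part in the passage of leukocytes across endothelium. It was the only one of the 6 genes in which 2 probe sets were at least 1 log2 unit higher. Probe set 1456746_a_at measured 120 and 181 on KO arrays, against 20.1 and 36.1 on WT arrays. Its change was 1.92 (SE 0.34) and was also 1.92 within each number. Probe set 1456747_x_at measured 28.4 and 51.9 on KO arrays, against 4.72 and 6.28 on WT arrays, a change of 1.35 (SE 0.35), with 1.10 within number 1 and 1.61 within number 2. Both come from one source sequence, so they are not independent readings.

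The other pair of Cd99l2 probe sets shares another source sequence. Probe set 1423965_at measured 78.8 and 118 on KO arrays, against 105 and 110 on WT arrays, with overlapping groups and a change of -0.13. Probe set 1423966_at measured 92.7 and 132 on KO arrays, against 61.1 and 103 on WT arrays, again with overlap, and a change of 0.40. The probe sets of Cd99l2 thus split by source sequence, 2 against 2. Cd99l2 lies on the X chromosome. By its brightest probe set (above), Xist was lower on the KO array within both numbers, with changes of -1.17 and -1.57. Its other probe sets changed less. The next brightest changed by -0.91 within number 1 and -0.21 within number 2, and the dimmest by -0.36 and 0.06. The part of Xist in the Cd99l2 values was not tested.

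Gsn encodes gelsolin, which severs and caps actin filaments and is made in a cytoplasmic and a secreted form. Its 4 bright probe sets had mean log2 values from 9.94 to 10.53. The brightest, 1437171_x_at, measured 1982 and 1157 on KO arrays, against 1670 and 1196 on WT arrays, with overlapping groups and a change of 0.10. Probe set 1415812_at had a change of 0.31, 1436991_x_at of -0.01 and 1456312_x_at of -0.33, all with overlapping groups. The last of these measured 2364 and 682 on KO arrays, against 1861 and 1379 on WT arrays, so KO array 2 was low.

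The dim probe set 1456569_x_at of Gsn measured 32.2 and 135 on KO arrays, against 18.2 and 7.13 on WT arrays. Its change of 1.60 (SE 0.50) came mostly from KO array 2, with 0.49 within number 1 and 2.71 within number 2. Without KO array 2 it was 0.78, and without KO array 1 it was 2.43. A partner from the same source sequence, 1456568_at, stayed between 0.40 and 1.01 on all arrays, the lowest level of the 27. Gsn is widely made by fibroblasts, whose markers were lower on KO arrays (above). The 4 bright Gsn probe sets had changes from -0.33 to 0.31, and the part of such cells in the Gsn values was not tested. In whole lenses, fewer cells of a type and less RNA per cell cannot be told apart.

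**Figure D2:**
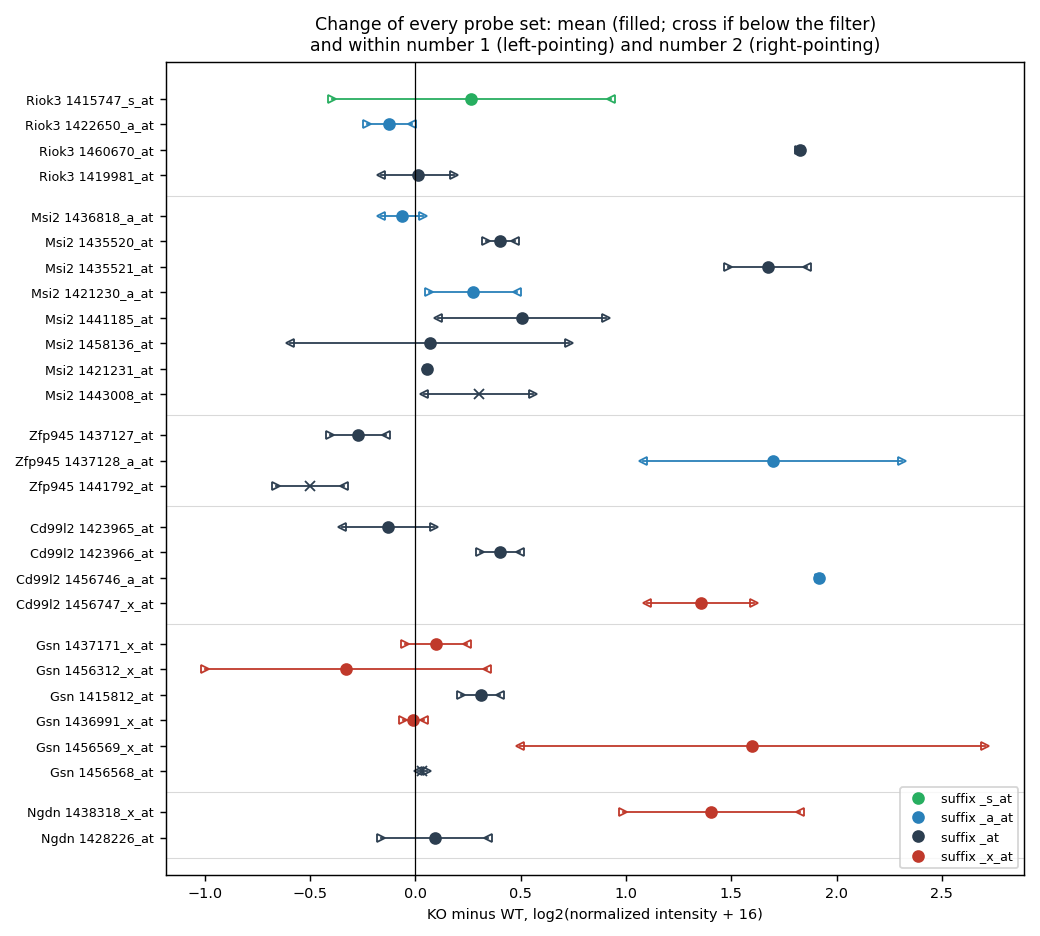
KO minus WT change on the log2(normalized intensity + 16) scale for each of the 27 probe sets, coloured by suffix. Filled circles (crosses for the 3 below the filter) are means over both numbers, left-pointing triangles the change within number 1 and right-pointing triangles that within number 2. The 7 probe sets beyond 1 stand apart from the rest of their genes, and the triangles of the Gsn probe set 1456569_x_at lie far apart, at 0.49 and 2.71.

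A ratio of 2 probe sets within one array does not depend on how arrays are scaled. Each of the 7 higher probe sets was set against one of the same gene that passed the filter and changed by less than 0.5 log2 units, from the same source sequence where there was such a one, and otherwise the brightest. On the intensities as deposited, the ratio was higher on both KO arrays than on both WT arrays for all 7. Both probe sets of each ratio were picked by their KO minus WT change, so this direction follows from the choice. The ratios therefore describe the size of the unequal change and are no evidence of it. They do not show which probe set of the pair changed, and their size also depends on the probes. For 1437128_a_at, 1456747_x_at and 1456569_x_at, whose WT mean lay below the filter, the WT percentages rest on dim values and no fold is given.

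For Riok3, 1460670_at stood at 76.6% and 49.4% of 1422650_a_at on KO arrays, against 18.9% and 8.45% on WT arrays. For Cd99l2, 1456746_a_at stood at 153% and 154% of 1423965_at on KO arrays, against 19.0% and 31.9% on WT arrays. The second Cd99l2 probe set, 1456747_x_at, stood at 34.8% and 44.8% of the same one on KO arrays, against 4.22% and 6.46% on WT arrays. In both genes the groups were far apart. For Msi2, 1435521_at stood at 135% and 58.4% of 1435520_at on KO arrays, against 43.6% and 20.9% on WT arrays, a narrow gap between KO array 2 and WT array 1. The gap was wide for Zfp945, where 1437128_a_at stood at 58.3% and 178% of 1437127_at on KO arrays, against 8.36% and 5.96% on WT arrays. In Ngdn, 1438318_x_at stood at 275% and 197% of 1428226_at on KO arrays, against 92.1% and 80.2% on WT arrays. There KO and WT arrays formed separate, narrow ranges. In Gsn, 1456569_x_at stood at 1.67% and 10.0% of 1437171_x_at on KO arrays, against 1.12% and 0.592% on WT arrays. Within number 1 the Gsn percentages were close, and within number 2 they were far apart.

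**Figure D3:**
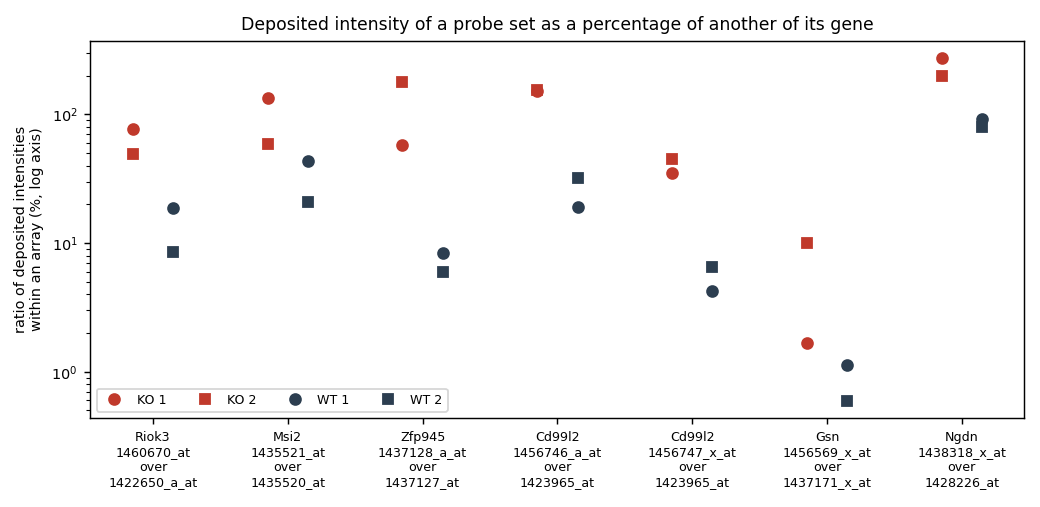
Deposited intensity of each of the 7 higher probe sets as a percentage (log axis) of another probe set of its gene on the same array. Red symbols are KO arrays and dark symbols WT arrays, circles number 1 and squares number 2. Red lies above dark in all 7 columns, least clearly for Msi2 (58.4% on KO array 2 against 43.6% on WT array 1) and Gsn (1.67% on KO array 1 against 1.12% on WT array 1).

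How common such disagreement is was measured over all genes. The brightest probe set above the filter was paired with each other one of the same gene, which gave 8516 pairs of 5193 genes, 18 of them from the 6 genes. At least 1 pair lay 1 log2 unit or more apart in 2.43% of the 5193 genes, and in 0.462% it did so within both array numbers in the same direction. The 6 genes met the first by the choice, and 4 of them, Msi2, Zfp945, Cd99l2 and Ngdn, met the second. By pairs, 5 of the 18 were that far apart within both numbers, where the share of all pairs is 0.294%. The values within each number are parts of the difference that chose the genes, and 2 of the 5 pairs hold a probe set that passed only through the KO arrays, so nothing is read from these counts. In limma's test of the pair difference 0% of the 8516 pairs were called, and 158 had an unadjusted p under 0.05. The largest pair difference was 2.05 in Cd99l2, 1.97 in Zfp945, 1.73 in Msi2, 1.56 in Riok3, 1.50 in Gsn and 1.31 in Ngdn. The median of the 6 was 1.65, against 0.31 over all 5193 genes. The genes were chosen by this difference, so the median and the ranks only place them and show nothing beyond the choice. The values of Zfp945 and Gsn rest on probe sets that passed only through the KO arrays. Only 4 genes had a larger difference than Cd99l2, and 28 had a larger one than Ngdn. Just above the first lay Rmst with 2.23, and just below the last lay Mllt3 with 1.30. Riok3 missed the criterion of both numbers with 0.90 within number 1, because its brightest probe set, 1415747_s_at, was itself high on KO array 1. Gsn missed it with 0.25 within number 1.

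**Figure D4:**
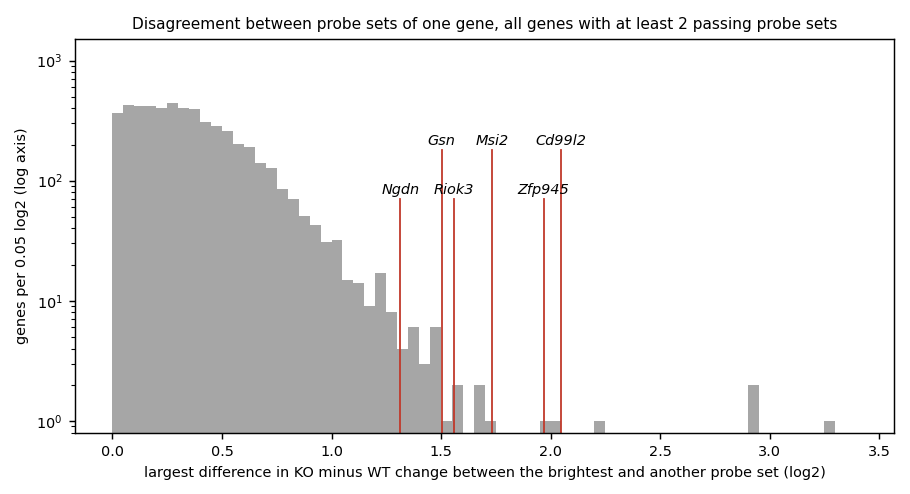
Largest difference in KO minus WT change (log2) between the brightest and another probe set of a gene, for the 5193 genes with at least 2 probe sets above the filter (log axis of genes per bin). Red lines mark the 6 genes, from 1.31 for Ngdn to 2.05 for Cd99l2, in the right tail of a distribution with a median of 0.31. The genes were chosen by this difference.

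No suffix type was shared by the higher probe sets. Of the 7, 2 are _at (Riok3, Msi2), 2 are _a_at (Zfp945, Cd99l2) and 3 are _x_at (Cd99l2, Gsn, Ngdn). Over the whole array, pairs of an _at and an _a_at probe set were at least 1 log2 unit apart in 1.96% of 1479 pairs and pairs of an _at and an _x_at in 1.93% of 674. Pairs of 2 _at probe sets were so in 1.60% of 3866. Among the 18 pairs of the 6 genes, the count was 3 of 7, 2 of 3 and 0 of 1 for these types. The genes were chosen for such pairs, so their counts are not set against the shares of the array. Over the other types the share ran from 0% of 79 pairs of 2 _s_at to 3.37% of 89 pairs of an _s_at and an _x_at, and over all 8516 pairs it was 1.55%. Within both numbers, 1.04% of the pairs of an _at and an _x_at were that far apart, 0.473% of those of an _at and an _a_at and 0.207% of those of 2 _at. These differences between types were not tested.

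The share varied with brightness. When all pairs were ranked by their dimmer probe set and cut into 4 classes of equal size, 2.82% of the dimmest class were at least 1 log2 unit apart, against 0.611% of the brightest. The 7 far pairs of the 6 genes were spread over all 4 classes, with 2, 1, 2 and 2 from dimmest to brightest. Probe sets from one source sequence could also disagree. Over the array, 1.19% of 2868 pairs from one source sequence were at least 1 log2 unit apart. In the 6 genes 3 of 7 such pairs were, with differences of 1.95 in Riok3, 1.27 in Msi2 and 1.97 in Zfp945. The genes were chosen for such differences, and the Zfp945 pair holds a probe set that passed only through the KO arrays. Nothing is read from this count. Among far pairs, the dimmer probe set had the higher change in 60.6% of 132 pairs on the array and in 6 of the 7 far pairs of these genes. Each of the 7 holds a probe set at least 1 log2 unit higher on KO arrays, in genes chosen by that difference. Their count is therefore not set against the share of the array.

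The difference between array numbers was not used to choose the genes and could be tested. Pairs with a probe set that passed only through the KO arrays are an exception, given below. The question was whether the same probe sets also come apart between arrays 2 and arrays 1, with the group as a term. By limma with Benjamini-Hochberg adjustment over all 8516 pairs, 0% of pairs were called between the numbers, and so 0 of the 18. The count depended on the processing. With values as deposited 857 pairs were called, 4 of these genes. Median centring gives the same pair differences and so is the same test. Trimmed-mean scaling called 472, 1 of these genes, and an offset of 64 called 750, 2 of these genes. An unadjusted p under 0.05 was found for 1 of the 18, against 15.1% of all pairs. That one was the pair of 1435520_at and 1436818_a_at of Msi2, with a difference of 1.06 (SE 0.26, limma adjusted p = 0.26), and the number 2 arrays were the higher in both KO (0.89) and WT (1.23). It was called under each of those settings, with limma adjusted p between 0.0032 and 0.029. The others called as deposited and with median centring were 1458136_at and 1421231_at of Msi2 and 1419981_at of Riok3, and with an offset of 64 it was 1456569_x_at of Gsn. For the pairs that were far apart between KO and WT, the difference between numbers was 0.10 (SE 0.29) for 1435521_at of Msi2, 0.25 (SE 0.27) for 1456746_a_at and 0.08 (SE 0.27) for 1456747_x_at of Cd99l2. It was -0.29 (SE 0.39) for 1460670_at of Riok3 and 0.34 (SE 0.26) for 1428226_at of Ngdn. The 2 largest were 0.49 (SE 0.40) for 1437128_a_at of Zfp945 and 1.17 (SE 0.61) for 1456569_x_at of Gsn. The value of Gsn was -0.09 between the WT arrays and 2.42 between the KO arrays, so KO array 2 carried it. With an offset of 64 the difference was 1.02 (limma adjusted p = 0.0050). In the main setting 1456569_x_at passed the filter only through the KO arrays, and KO array 2 also carried its KO minus WT change. For this pair the test is therefore not independent of the choice, and nothing is read from its p. The same filter limit holds for 1437128_a_at of Zfp945, at -0.26 between the WT arrays and 1.24 between the KO arrays. It also holds for 1456747_x_at of Cd99l2. Nothing is read from the test of these pairs, although they count among the 18.

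Relatives and partners of the 6 genes are not members, although their list, too, was made with earlier results of these data known. The list holds the RIO kinases Riok1 and Riok2, Musashi 1, Cd99, zinc finger genes of similar name, members of the gelsolin family and proteins of translation and ribosome assembly. Of its 22 genes, 18 had a probe set above the filter, 33 in all. By limma over all probe sets 0 of the 33 were called in either direction, 0 had an unadjusted p under 0.05, and 0 were 1 log2 unit from no change. On the whole array 0.0178% were called. The median change of the 33 was 0.15, against -0.01 over all probe sets, and the range was from -0.77 for Zfp760 to 0.74 for a probe set of Zfp944. Of the 8 relatives with a pair, only Riok1 had one at least 1 log2 unit apart, where the background is 2.43%. Its probe set 1425358_at measured 17.3 and 2.40 on KO arrays, against 27.1 and 20.5 on WT arrays (change -0.68), and 1419110_at measured 50.5 and 70.8 on KO arrays, against 40.5 and 47.2 on WT arrays (change 0.35). Msi1 followed the array number, with 845 and 221 on KO arrays, against 813 and 188 on WT arrays. Eif4e, the cap-binding protein, measured 1514 and 1553 on KO arrays, against 1234 and 1747 on WT arrays.

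Across the 4 arrays, the probe sets whose pattern lay nearest to the most changed one of each gene were found by the root mean square distance of centred log2 values. Over 4 arrays such likeness is a description only. The most changed probe sets carry the difference that chose the genes, so neighbours that are also higher on KO arrays follow from the choice. A probe set of Capn3, a calpain protease, was nearest to both 1460670_at of Riok3 (distance 0.20) and 1435521_at of Msi2 (0.14). It measured 2649 and 1884 on KO arrays, against 836 and 696 on WT arrays. Second nearest were 1435521_at of Msi2 for Riok3 (0.26) and a probe set of Hopx, a homeodomain-only cofactor, for Msi2 (0.16). Probe sets of Syn2, a synaptic vesicle protein, were the nearest to Cd99l2 (0.18 and 0.22) and to Zfp945 (0.13), followed for Zfp945 by Pear1 (0.15). Gsn was nearest to Pear1 (0.17) and Ccnt2 (0.25), and Ngdn to Hopx (0.18) and 9430083A17Rik (0.21). Pear1 (6.55 and 0.85) and 9430083A17Rik (0.85 and 7.15) were dim on WT arrays. Among the 6 themselves the closest were Gsn and Zfp945 (0.25) and Riok3 and Msi2 (0.26), and the farthest were Riok3 and Gsn (0.81). The first pair is highest on KO array 2 and the second on KO array 1. Both probe sets of the first pair passed the filter only through the KO arrays.

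Alternative starts are one way in which a gene makes transcripts that differ, and the annotated starts of the genes can be shown, although the sources used here do not say where the probe sets lie on the transcripts. RefSeq promoter sequences (GRCm38.p6) were matched for 5 of the 6 genes, all but Riok3. Among these sequences Gsn has 3 starts spread over 26021 bases and Msi2 has 3 within 48 bases, while Zfp945, Cd99l2 and Ngdn have 1 each. These need not be all starts of a gene, since the annotated spans of Msi2, Zfp945 and Cd99l2 reach further upstream. Heat shock factors bind repeats of the unit GAA and its reverse complement TTC, so the 250 bases upstream of each start were searched for GAANNTTC and TTCNNGAA, each of which reads the same on both strands. Either was found in 12.8% of 32817 such windows. Of the windows of these genes only those of Msi2 held one. A match is not shown to be a bound site, and nothing about the factor follows from its absence. The window before the first Msi2 start is printed with the match in capitals, 142 bases before the start, and the 3 windows of Gsn are printed because they belong to starts far enough apart to give different first exons. The Msi2 window lies on the minus strand at chr11:88718278-88718527, and those of Gsn on the plus strand at chr2:35256109-35256358, chr2:35266494-35266743 and chr2:35282130-35282379.
Msi2 start 1: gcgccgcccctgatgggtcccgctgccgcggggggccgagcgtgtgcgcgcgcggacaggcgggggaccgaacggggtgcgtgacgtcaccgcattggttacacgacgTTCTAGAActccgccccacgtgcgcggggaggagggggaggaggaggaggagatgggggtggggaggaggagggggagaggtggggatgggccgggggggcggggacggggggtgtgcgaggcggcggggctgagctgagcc
Gsn start 1: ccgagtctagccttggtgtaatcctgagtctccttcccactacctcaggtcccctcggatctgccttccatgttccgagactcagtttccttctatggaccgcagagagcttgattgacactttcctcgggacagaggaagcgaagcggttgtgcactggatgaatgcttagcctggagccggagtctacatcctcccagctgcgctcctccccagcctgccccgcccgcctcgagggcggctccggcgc
Gsn start 2: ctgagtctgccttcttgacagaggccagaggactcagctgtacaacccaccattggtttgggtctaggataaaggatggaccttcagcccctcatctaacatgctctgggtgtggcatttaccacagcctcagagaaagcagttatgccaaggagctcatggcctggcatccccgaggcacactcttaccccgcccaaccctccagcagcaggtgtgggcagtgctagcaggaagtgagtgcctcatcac
Gsn start 3: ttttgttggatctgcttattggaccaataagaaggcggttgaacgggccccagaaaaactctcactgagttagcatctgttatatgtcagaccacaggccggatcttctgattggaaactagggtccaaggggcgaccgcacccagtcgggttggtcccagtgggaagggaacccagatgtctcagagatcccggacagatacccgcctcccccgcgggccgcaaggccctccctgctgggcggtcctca
The printed Gsn windows hold 60.8%, 56% and 57.6% G and C bases and the Msi2 window 75.6%.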

How the data were processed

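The deposited file holds the authors' linear intensity for every probe set on each array, not brought to one scale. The sources used here do not name the software that summarised the probes. Per the labels' protocols, column-purified RNA was labelled with biotin from oligo-T7 primers. Arrays were quantile normalized (limma 3.58.1, R 4.3.3) and values were taken as log2 after adding 16. The 64 control probe sets were dropped, and the 22519 probe sets whose mean log2 reached the median were fitted with limma (moderated test, variance trend, Benjamini-Hochberg adjustment at 0.05). Differences between probe sets of a gene went through the same fit per pair, and array numbers were compared with the group as a term. SEs are from the fit above the filter. The fits were tested on simulated data. The 4 arrays limit the precision.

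The members, lists and tests were chosen with earlier results of these data known. Named are the 6 genes with all their probe sets, the list of relatives and partners, and the 2 probe sets nearest in pattern per gene. Rmst and Mllt3 were named after their values were seen. Deviations of same-numbered arrays from their group means correlated at 0.43, but the labels tie no number to a litter or day, so numbers were not treated as pairs. Alternatives were other normalizations, filters and offsets, no variance trend, the number as a block and each array left out.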

Additional observations from a re-analysis of the deposited data

How the results depend on the processing

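The 2 arrays per group, with KO array 2 the dimmest, limit every value here. Of the 270 values of single probe sets under an alternative, 223 moved by no more than the SD between replicates and 47 by more. With 2 arrays per group, leaving out an array cannot move a value by more than this SD. All values with an array left out are therefore among the 223 by construction. None of the 7 changes above 1 log2 unit turned its sign. Their groups did not overlap, so leaving out an array could not have turned it. The lowest value of the 7 was 0.57, for 1456747_x_at of Cd99l2 with offset 64, and the highest 3.30, for 1437128_a_at of Zfp945 with offset 1. The median KO minus WT change of the probe sets above the filter was -0.42 with values as deposited and -0.25 with median centring. In the main setting it was -0.01.

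All 6 genes kept a pair at least 1 log2 unit apart under every normalization (median centring leaves pairs as deposited), without a filter and with offset 1. With offset 64 and with a filter at the 70th percentile 4 did (not Gsn and Zfp945), without single arrays 5 to 6 (Gsn was lost without KO array 2), and at a distance of 2 log2 units 1 did, Cd99l2. Over all genes 126 had such a pair. The count was 270 with no filter, 37 with the filter at the 70th percentile, 630 with offset 1, 17 with offset 64, 5 at a distance of 2 log2 units, and 122 to 881 without single arrays (881 without KO array 1, 321 without WT array 1, 275 without WT array 2).

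Against 4 probe sets called between KO and WT, the count was 0 with values as deposited and with no filter (524 had an unadjusted p under 0.05 with all 4 arrays and the filter). Median centring called 16, and leaving out single arrays 4 to 566 (566 without KO array 1 and 92 without KO array 2). With the array number as a replicate block 317 were called. The block leaves 1 residual degree of freedom per probe set.

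Pairs called for a different change numbered 0 (158 with an unadjusted p under 0.05), and 0 with the replicate block. They numbered 3 with no filter, 1 with offset 64 and 0 to 349 without single arrays (349 without KO array 1, 8 without KO array 2, 3 without WT array 1). Pairs called between array numbers were 857 with values as deposited and with median centring, which are the same pair test. They were 472 with trimmed-mean scaling and 750 with offset 64 (those of these genes are named above). The cause of these differences was not tested.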
